A study of Zea mays with 6 samples.

Results

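The genes described here encode the enzymes that reduce nitrate to nitrite and nitrite to ammonium in the maize (Zea mays) root, together with proteins that supply the cofactor and the electrons of the second step. They were taken by gene identifier and are 6 of the 39219 genes on the array, with 11 of its 59756 transcripts and 27 of its 139000 transcript probes. They were chosen by measured values, since in the comparison of Fe-deficient with Fe-sufficient roots on these same arrays, several of them stood among the largest differences. Their differences between the groups are therefore given as a description, with no p-value, and nothing is supported with them.

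Nitrate reductase is a cytosolic enzyme that carries flavin, haem and a molybdenum cofactor and transfers electrons from NADH or NADPH to nitrate. Nitrite reductase works in the plastid. It holds a siroheme and an iron-sulfur cluster and takes its electrons from reduced ferredoxin. In roots, which lack photosynthetic electron transport, ferredoxin is reduced by a ferredoxin-NADP reductase running on NADPH from the oxidative pentose phosphate pathway. Nitrate itself is a well known inducer of these genes in roots, and most of the proteins contain iron.

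The study compared roots of maize PR33T56, a hybrid by the sample labels and an inbred line by the methods, on 6 single-colour NimbleGen arrays. On 3 arrays the samples carry the label Fe-deficient (0 µM Fe-EDTA for the last 7 d) and on 3 the label Fe-sufficient (100 µM Fe-EDTA for the same 7 d), each sample being a pool of the roots of 6 plants aged 19 d. Until the age of 12 d the plants of both groups had shared 7 d in a solution without Fe, and the Fe-sufficient group is therefore one of resupplied plants. The solution of both groups contained NH4NO3 at 1000 µM, which offers nitrate and ammonium together, and Na2MoO4 at 0.05 µM.

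Levels are log2 values of the deposited probe intensities, with the probes of a transcript combined by median polish. A transcript counted as above background where 1 or more of its probes on an array exceeded the 95th percentile of the random-sequence probes of that array. Between 58.4% and 66.5% of the transcript probes of an array did so. The arrays correlated with each other at r from 0.947 to 0.988 over all transcripts. All lay on 1 slide, at positions 10, 11 and 12 for the Fe-deficient-labelled arrays and at positions 7, 8 and 9 for the Fe-sufficient-labelled ones, so slide position and group cannot be told apart. Among the root markers looked for, the crown root gene rtcs and the root hair gene rth3 were matched, and both were above background on all 6 arrays. The markers of photosynthetic leaf tissue matched 7 genes, of which 4, coding for phosphoenolpyruvate carboxylase or pyruvate phosphate dikinase, were above background on all 6 arrays, while the rbcS gene GRMZM2G113033 was above background on 0 arrays and the rbcS gene GRMZM2G098520 on 2. Of 40 transcripts of 28 iron-response genes in the main table of the published work, 0 were called between the groups in limma with all 6 arrays (the lowest adjusted p was 0.445, and 5 had an unadjusted p not above 0.05), and leaving out the Fe-sufficient-labelled array 1 gave 0 as well. The labels or the deposited values may therefore not match the published comparison, which was not settled here, and the arrays are called by their labels. With 3 arrays in each group, precision is limited by their number.

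All 11 transcripts were brighter on each of the 3 Fe-deficient-labelled arrays than on any of the 3 Fe-sufficient-labelled arrays. Over all transcripts of the array the groups did not overlap in that direction for 9.75%. The transcript T01 of the siroheme gene sum1 was above background on 0 Fe-sufficient-labelled arrays, so its difference is known only as a bound, at least 3.14 on the log2 scale. The log2 differences of the other 10 ran from 1.17 for the ferredoxin gene FDX6 to 4.56 for the nitrate reductase gene NAR. The median of the 11 was 3.50 with sum1 T01 at its measured value and 3.14 with it at its bound, against 0.01 over all transcripts. With the thresholds of the study (fold change of 1.5 or more, adjusted p not above 0.05), limma called 6 of the 11 transcripts higher in the Fe-deficient-labelled arrays, and 0.0703% of all transcripts were called in that direction. The 6 came from NAR, NIR, sum1 and fnr1, whereas NNR1 and FDX6 had no called transcript. For sum1 the called transcript was T01, so that call rests partly on values not above background. With the replicate number as a block in the model, 0 of the 11 and 0% of all transcripts were called. Since the genes were chosen with this contrast known, nothing is read from these counts. In RNA of whole roots, fewer cells of a type and less RNA per cell cannot be told apart.

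**Figure D1:**
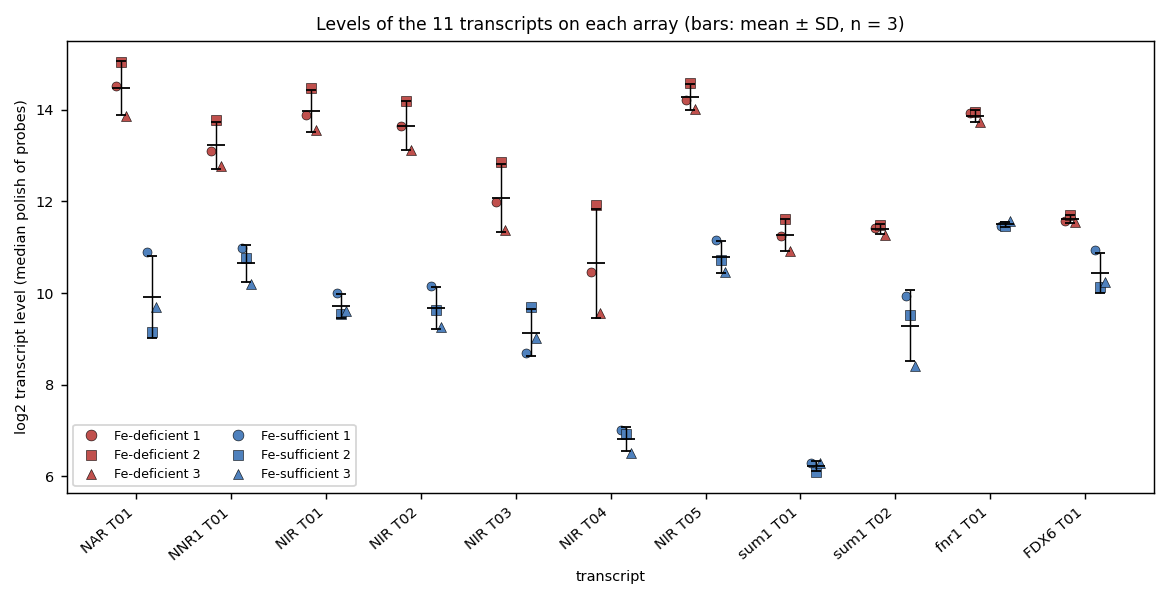
Log2 level of each of the 11 transcripts (x axis) on each array (y axis), red for Fe-deficient-labelled arrays and blue for Fe-sufficient-labelled arrays, with a marker shape per replicate number and bars for the mean ± SD (n = 3). In every transcript the lowest red point lies above the highest blue point, with the narrowest gap for FDX6 T01 (0.60), and the blue points of sum1 T01 are not above background, so the width of its gap is not measured.

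Nitrate reductase was measured through 2 genes with 1 transcript each. NAR (GRMZM5G878558) had log2 levels of 14.51, 15.04 and 13.88 on the Fe-deficient-labelled arrays, against 10.90, 9.16 and 9.69 on the Fe-sufficient-labelled ones. The groups were apart by 2.98 on the log2 scale between their nearest arrays, and the Fe-sufficient-labelled array 1 stood above the other two of its group. The means were 14.48 ± 0.58 on the Fe-deficient-labelled arrays and 9.92 ± 0.89 on the Fe-sufficient-labelled ones (SD, n = 3 each), a difference of 4.56 or 23.6-fold.

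NNR1 (GRMZM2G568636), the second nitrate reductase gene, had log2 levels of 13.11, 13.78 and 12.77 on the Fe-deficient-labelled arrays, against 10.99, 10.77 and 10.20 on the Fe-sufficient-labelled ones. The order of the Fe-deficient-labelled arrays was the same as for NAR. The difference of the means was smaller, 2.57 or 5.94-fold, with SDs of 0.51 on the Fe-deficient-labelled arrays and 0.41 on the Fe-sufficient-labelled ones. Because the levels of 2 transcripts rest on different probes, they were not compared with each other. The probe sequences were not used here, so whether probes of NAR also bind NNR1 RNA was not tested.

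Nitrite reductase (NIR, GRMZM2G079381), which turns nitrite into ammonium, was represented by 5 transcripts of 1 gene. T05, the transcript with the highest mean level, had log2 levels of 14.21, 14.59 and 14.03 on the Fe-deficient-labelled arrays, against 11.15, 10.73 and 10.46 on the Fe-sufficient-labelled ones. The spread within the groups was small beside the gap between them, with means of 14.28 ± 0.29 on the Fe-deficient-labelled arrays and 10.78 ± 0.35 on the Fe-sufficient-labelled ones (SD, n = 3 each) and a fold of 11.3. T01 had levels of 13.89, 14.48 and 13.56 on the Fe-deficient-labelled arrays and 10.01, 9.54 and 9.60 on the Fe-sufficient-labelled ones, 19.2-fold apart. T02 followed closely, with 13.64, 14.19 and 13.13 on the Fe-deficient-labelled arrays and 10.15, 9.62 and 9.25 on the Fe-sufficient-labelled ones, 15.8-fold apart.

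The remaining NIR transcripts, T03 and T04, were more variable from array to array. T03 had log2 levels of 11.99, 12.87 and 11.38 on the Fe-deficient-labelled arrays and 8.69, 9.69 and 9.01 on the Fe-sufficient-labelled ones, a 7.73-fold difference. T04 had the largest spread of the 11 transcripts among the Fe-deficient-labelled arrays, with log2 levels of 10.45, 11.93 and 9.57 (SD 1.19). On the Fe-sufficient-labelled arrays it lay at 7.01, 6.92 and 6.51 and was above background on 1 of 3, so its fold of 14.3 rests partly on values near background. T03 and T04 were the NIR transcripts that were not called. All 5 transcripts come from 1 gene, and whether their probes share sequence was not tested, so they are not independent measurements.

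Siroheme, the cofactor of nitrite reductase, is made from uroporphyrinogen III, and its synthesis starts with the methylation catalysed by the product of sum1 (GRMZM2G105604). The transcript T01 of sum1 had log2 levels of 11.25, 11.62 and 10.92 on the Fe-deficient-labelled arrays, and 6.28, 6.09 and 6.29 on the Fe-sufficient-labelled ones, where it was above background on 0 of 3 arrays. It was thus present on all arrays of the first kind and not distinguishable from random probes on the second, and its fold is given as a bound, at least 8.82-fold higher. This bound sets the mean of the Fe-deficient-labelled arrays against the mean over the Fe-sufficient-labelled ones of the lowest signal above background, or of the transcript's own level where that was higher. The transcript T02 had log2 levels of 11.41, 11.49 and 11.28 on the Fe-deficient-labelled arrays, against 9.93, 9.52 and 8.41 on the Fe-sufficient-labelled ones. Here the spread lay in the Fe-sufficient-labelled arrays (SD 0.78, against 0.11 in the Fe-deficient-labelled arrays), and the difference was 2.11 or 4.31-fold.

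The electron supply of nitrite reductase was represented by fnr1 (GRMZM2G058760), a ferredoxin-NADP reductase gene, and FDX6 (GRMZM2G106190), which codes for a non-photosynthetic ferredoxin. Of the 11 transcripts fnr1 had the most even values within the Fe-sufficient-labelled arrays. Its log2 levels were 13.92, 13.96 and 13.73 on the Fe-deficient-labelled arrays, against 11.46, 11.47 and 11.57 on the Fe-sufficient-labelled ones, a fold of 5.17, and its SD was 0.12 on the first and 0.06 on the second. FDX6 had log2 levels of 11.58, 11.71 and 11.55 on the Fe-deficient-labelled arrays and 10.95, 10.14 and 10.24 on the Fe-sufficient-labelled ones. Its groups lay closest together, 0.60 apart on the log2 scale between the nearest arrays, and the difference of the means was 1.17 or 2.25-fold.

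The folds of single probes of 1 transcript differed, and each probe is named here by its position in the transcript as the array files give it. Of the 27 probes, 25 had no overlap between the groups in the direction of higher values on the Fe-deficient-labelled arrays, against 9.26% of all transcript probes. The 2 probes with overlap were the most upstream probes of FDX6 and of sum1 T02. The FDX6 probe at base 63 had intensities of 242, 277 and 282 on the Fe-deficient-labelled arrays, against 194, 190 and 329 on the Fe-sufficient-labelled ones, and was above background on 2 of 3 Fe-deficient-labelled arrays and on 1 of 3 of the Fe-sufficient-labelled ones. By contrast the FDX6 probe at base 1171 had intensities of 5479, 5233 and 6210 on the Fe-deficient-labelled arrays, against 1242, 454 and 488 on the Fe-sufficient-labelled ones. Its fold was 8.65, while that of the bright probe at base 955 was 2.25, the value that the median polish took over for the gene. With the mean of the probes in place of median polish the log2 difference of FDX6 was 1.5.

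A like spread was seen in fnr1 and sum1. The probe of fnr1 at base 714, with intensities of 42732, 45160 and 37695 on the Fe-deficient-labelled arrays and 16768, 17275 and 17766 on the Fe-sufficient-labelled ones, differed 2.42-fold. The dimmer probe at base 1618 differed 7.51-fold, with intensities of 16758, 16150 and 14181 on the Fe-deficient-labelled arrays against 2813, 1682 and 1915 on the Fe-sufficient-labelled ones. The most downstream probe of fnr1, at base 1699, was above background on 0 of 3 Fe-sufficient-labelled arrays and differed at least 3.69-fold. In sum1 T02 the probe at base 1451 differed 10.6-fold, and the probe at base 180 differed 1.75-fold, with intensities of 469, 477 and 470 on the Fe-deficient-labelled arrays against 404, 524 and 93.3 on the Fe-sufficient-labelled ones. The lower level of T02 on the Fe-sufficient-labelled array 3 thus came with the low value of that upstream probe. The 3 probes of sum1 T01 lay within 11 bases of each other, between bases 1779 and 1790, and differed at least 8.37-fold, 9.26-fold and 9.79-fold.

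The nitrate and nitrite reductase probes had higher folds at the downstream position in NAR and in 3 of the 5 NIR transcripts. In NAR the probe at base 1663 differed 20.3-fold and the probe at base 2724 differed 27.5-fold. The corresponding values in NIR were 14.9-fold and 24.8-fold for T01, 9.78-fold and 25.4-fold for T02, and 6.27-fold and 20.3-fold for T05. NNR1 had the opposite order, with 6.64-fold at base 2217 and 5.32-fold at base 2921. The 3 probes of NIR T03, which lay within 66 bases of each other, differed 6.61-fold, 14.5-fold and 7.23-fold. For NIR T04, the probe at base 556 differed 13.4-fold. This probe and the T03 probe with the 14.5-fold difference were each above background on 1 of 3 Fe-sufficient-labelled arrays, and the NAR probe at base 2724 on 2 of 3, so these folds rest partly on values near background. In NIR T04 the probes at bases 702 and 730 were above background on 0 of 3 Fe-sufficient-labelled arrays and differed at least 5.63-fold and 6.56-fold. The brightness of a probe and its position moved together with its fold in some of these transcripts, and their part in the differing folds was not tested.

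**Figure D2:**
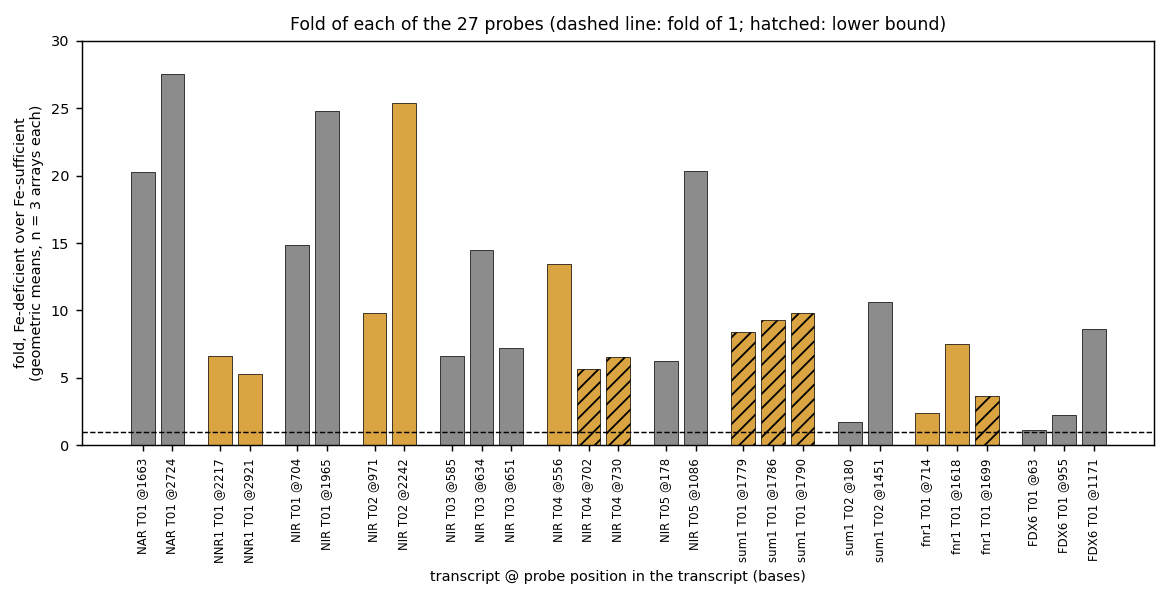
Fold of each of the 27 probes (y axis, linear, geometric mean of the 3 Fe-deficient-labelled arrays over that of the 3 Fe-sufficient-labelled ones), by transcript and position in bases (x axis). Hatched bars are lower bounds for the 6 probes that were above background on 0 Fe-sufficient-labelled arrays, and the values run from 1.16 for the FDX6 probe at base 63 to 27.5 for the NAR probe at base 2724.

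The variation among arrays of the same label is described next, with no test. On the Fe-deficient-labelled arrays, the 11 transcripts had the same order, highest on replicate 2 and lowest on replicate 3, an order that 20.4% of all transcripts of the array had. The probes gave this order less uniformly, in 23 of 27 against 19.9% of all probes, and the 4 others belonged to FDX6, with 2, and to fnr1 and sum1 T02, with 1 each. The deviations from the group mean were largest for NIR T04, at 1.28 on replicate 2 and -1.08 on replicate 3, and were 0.56 and -0.60 for NAR and 0.10 and -0.07 for FDX6. On the Fe-sufficient-labelled arrays the order was mixed. Replicate 1 was highest in 8 of the 11 transcripts, against 42.7% of all transcripts, and the exceptions were NIR T03, sum1 T01 and fnr1.

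Pearson correlations of these deviations over the 6 arrays are given as a description. Each rests on few arrays, and the points of all genes share the same RNA samples and the same normalization. Among the brightest transcripts of the 6 genes, 13 of 15 pairs had a positive r, with a median of 0.62 and a range from -0.30 to 0.94. No such value over pairs of other genes is given beside it, so nothing particular to these 6 genes is read from it. The highest r of the 15 pairs was that of NNR1 with NIR T05. NAR and NIR T05 had r = 0.83 and NAR and FDX6 r = 0.91. The deviations of fnr1 were small, and its r was 0.34 with NAR, 0.33 with NNR1, 0.19 with NIR T05, -0.08 with FDX6 and -0.30 with sum1 T02. The other sum1 transcript, T01, had r = 0.84 with fnr1 and r = 0.04 with sum1 T02, but its values on the Fe-sufficient-labelled arrays are not above background.

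**Figure D3:**
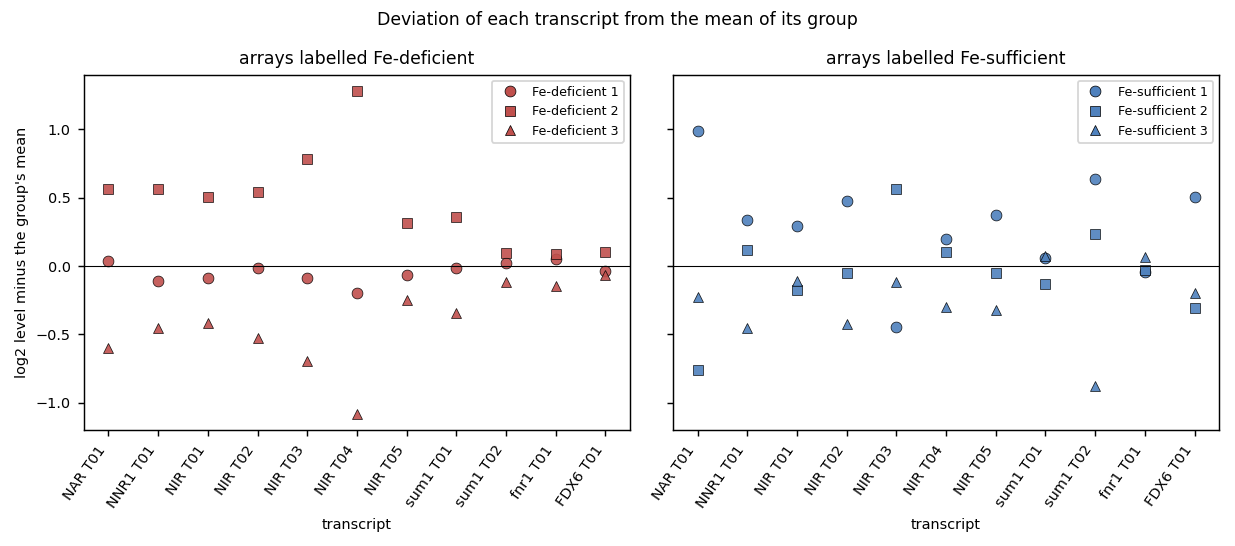
Deviation of each transcript from the mean of its own group on the log2 scale (y axis) for the 11 transcripts (x axis), with the Fe-deficient-labelled arrays on the left, the Fe-sufficient-labelled ones on the right and a marker shape per replicate number. On the left the squares (replicate 2) lie highest and the triangles (replicate 3) lowest in all 11 transcripts, while on the right no order is shared by all.

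Other transcripts with nearly the same profile were searched among 936 transcripts of other genes that exceeded background on every array of at least 1 group and had an SD of at least 1 over the 6 arrays. Likeness was the Pearson r over the 6 arrays with the mean standardized profile of NAR and NIR T05. Of the 11 transcripts described here, NAR T01 and NIR T05 make up this profile, so each was correlated partly with itself (r = 0.997). Their r is therefore no measure of likeness. The other NIR transcripts had r from 0.933 for NIR T03 to 0.997 for NIR T02. They come from the same gene as NIR T05, so their r is no independent measure either. The transcripts of NNR1, sum1, fnr1 and FDX6 had r from 0.947 for sum1 T02 to 0.988 for sum1 T01. The level of sum1 T01 on the Fe-sufficient-labelled arrays is not above background. The 8 most alike of the searched transcripts had r from 0.989 to 0.997, each above every transcript of NNR1, sum1, fnr1 and FDX6. These 8 belonged to 6 genes, none with an informative name in the gene table. The most alike was GRMZM2G102959 T01, with log2 levels of 14.51, 14.69 and 14.39 on the Fe-deficient-labelled arrays and 11.46, 10.76 and 10.60 on the Fe-sufficient-labelled ones. It was 12.0-fold apart, close to the fold of NIR T05. It was followed by GRMZM2G000739 T02, which was 11.7-fold apart with 1 of 3 Fe-sufficient-labelled arrays above background, and by the transcripts T01 and T04 of GRMZM2G181081, which were 4.16-fold and 3.83-fold apart. The others were GRMZM2G442000 T01 (3.80-fold), GRMZM2G177077 T01 (7.96-fold), GRMZM2G000739 T01 (5.46-fold) and GRMZM2G400965 T01, for which no fold is given because it was above background on 0 Fe-sufficient-labelled arrays. Its log2 levels were 7.79, 8.41 and 7.85 on the Fe-deficient-labelled arrays and 6.07, 5.91 and 5.61 on the Fe-sufficient-labelled ones. Even the higher levels lay near the background threshold, and the lower bound was 0.928-fold, so the bound establishes no difference between the groups. The 8 transcripts were picked for this profile, so their differences are descriptions as well.

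The neighbouring steps of nitrogen reduction were followed through 48 other genes, matched by symbol in lists of transport, assimilation, cofactor and NADPH supply. By the brightest transcript of each gene, limma called 0 of the 48, neither higher nor lower, against 0.079% of all genes. Those with an unadjusted p not above 0.05 numbered 8, against 9.73% of all genes. The 48 log2 differences had a median of 0.01, as did those of the brightest transcripts of all genes. In 4 cases the matched symbol is also used for another gene (FNR, pgl1, tga1 and CNX), so these may not belong to their lists. These 4 are not described further, but they remain in all counts, medians and ranges over the 48 genes and the lists.

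The gene nearest to the threshold was pgd3 (GRMZM2G440208), which codes for a plastid 6-phosphogluconate dehydrogenase, an NADPH-forming enzyme of the oxidative pentose phosphate pathway. Its log2 levels were 15.35, 15.27 and 15.30 on the Fe-deficient-labelled arrays, against 14.24, 13.95 and 13.84 on the Fe-sufficient-labelled ones. The groups did not overlap, as in that direction for 6 of the 48 genes and for 9.75% of all transcripts. In the other direction they did not overlap for 4 of the 48. No share over all transcripts is given for that direction, so nothing is read from this count. The difference of 1.30 (95% interval 0.94 to 1.66), or 2.46-fold, did not pass the test over all transcripts (limma adjusted p = 0.0622). It was called with a filter on dim transcripts (limma adjusted p = 0.0464), with array weights (limma adjusted p = 0.00806) and without the Fe-sufficient-labelled array 1 (limma adjusted p = 0.011). Under the other alternatives, among them an RMA-type background correction and the replicate number as a block, it was not called. The other 6-phosphogluconate dehydrogenase of the list, pgd2 (GRMZM2G127798), had log2 levels from 14.80 to 14.96 on the Fe-deficient-labelled arrays and from 14.68 to 15.06 on the Fe-sufficient-labelled ones, a difference of -0.01 (95% interval -0.37 to 0.34).

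Of the other ferredoxin genes, fdx5 was above background on 0 of 6 arrays and fdx2 on 1, which leaves fdx3 and FDX1. The brightest transcript of fdx3 (GRMZM2G053458), the other root ferredoxin, had log2 levels of 15.10, 15.19 and 14.96 on the Fe-deficient-labelled arrays and 15.07, 14.83 and 14.81 on the Fe-sufficient-labelled ones, a difference of 0.18 (95% interval -0.17 to 0.52; limma adjusted p = 0.658). FDX1 (GRMZM2G122337), a leaf ferredoxin, had a difference of -0.27 (95% interval -0.89 to 0.34; limma adjusted p = 0.701). The difference between FDX6 and these genes was not tested. Sulfite reductase, sir (GRMZM2G090338), also holds siroheme and takes electrons from ferredoxin, and was singled out after its values were seen. Its log2 level was 14.42 ± 0.05 on the Fe-deficient-labelled arrays and 14.19 ± 0.19 on the Fe-sufficient-labelled ones (SD, n = 3 each), with overlapping values and a difference of 0.23 (95% interval -0.12 to 0.58; limma adjusted p = 0.587). The 10 genes of sulfite reduction and sulfate assimilation, sir included, had differences from -0.29 to 0.41, with ST1 at the low end and aprl4 at the high end, and aprl9 at 0.35.

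Of the tetrapyrrole genes, which share their early intermediates with siroheme, les22 (GRMZM2G044074) codes for uroporphyrinogen decarboxylase, the enzyme that draws uroporphyrinogen III towards haem. Its log2 level was 9.87 ± 0.26 on the Fe-deficient-labelled arrays and 9.24 ± 0.24 on the Fe-sufficient-labelled ones (SD, n = 3 each), a difference of 0.63 (95% interval 0.16 to 1.09; limma adjusted p = 0.445). The 5 genes of this list had differences from 0.09 to 0.69, with cpx2 (GRMZM2G032282) highest and elm1 (GRMZM5G861678) at 0.31, and 0 were called. In the molybdenum cofactor list, VP15 (GRMZM2G121468) was at 0.15 and the 3 genes matched as CNX5 were at 0.02, -0.12 and -0.40, with 0 of 5 called. The nitrate regulator NLP8 (GRMZM2G176655) had a difference of 0.59 (95% interval 0.12 to 1.05; limma adjusted p = 0.456).

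The list of nitrate and ammonium transport matched 5 genes, all of nitrate transport, so ammonium transporters were not examined. The 5 differences ran from -0.46 for NRT1.2 (GRMZM5G811593) to 0.39 for NAR2.1 (GRMZM2G179294), the partner protein of the NRT2 transporters, and nrt2.2 (GRMZM2G010251) was at 0.24. Of the 5, NAR2.2 (GRMZM2G163494) was above background on 0 arrays. Ammonium assimilation held 13 genes with 0 called by the brightest transcript, from -1.24 for the glutamine synthetase gene Gln1-4 (GRMZM2G036464; limma adjusted p = 0.433) to 1.07 for gln1 (GRMZM2G098290; limma adjusted p = 0.132), with the asparagine synthetase gene asn3 at -0.66. A dimmer transcript of gln1 (GRMZM2G098290) was called. This was the only gene of the 48 with any transcript called, against 0.0994% of all genes, and nothing is read from it.

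**Figure D4:**
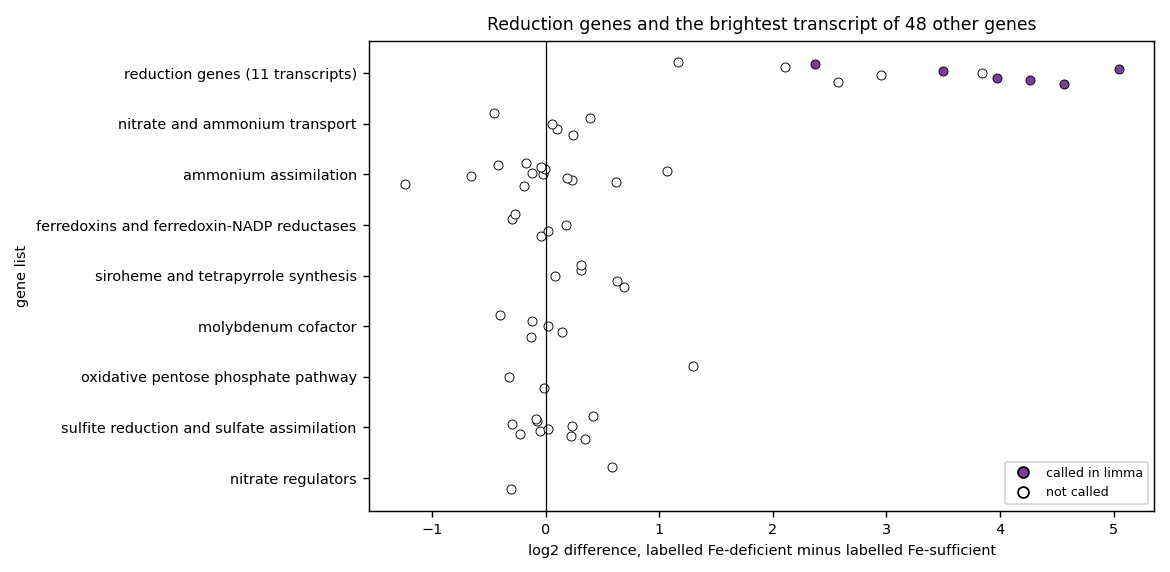
Log2 difference (x axis, Fe-deficient-labelled arrays minus Fe-sufficient-labelled arrays) of the 11 transcripts of the reduction genes (top row) and of the brightest transcript of each of the 48 other genes by list (rows below), with filled points for transcripts called in limma. The reduction transcripts lie between 1.17 and 4.56, apart from sum1 T01 at the right end, drawn at a measured difference of 5.05 from a level not above background, and the 48 other genes lie between -1.24 and 1.30.

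Since the groups did not overlap for any of the 11 transcripts, their differences had to stay positive when single arrays were left out. That sign is therefore no check, whereas the number of calls changed. Without any 1 of the arrays, the median log2 difference lay between 3.20 and 3.68, or between 2.96 and 3.32 with sum1 T01 at its bound. The largest shift among the called transcripts was that of NAR, with a difference of 5.05 without the Fe-sufficient-labelled array 1 and 4.18 without the Fe-sufficient-labelled array 2. Without the Fe-sufficient-labelled array 1, 9 of the 11 transcripts were called higher, against 0.271% of all transcripts. Without Fe-sufficient 2 (0.00502% of all transcripts), Fe-sufficient 3 (0.01%) or Fe-deficient 1 (0.00335%), 1 of the 11 was called, sum1 T01 in each case. The level of sum1 T01 on the Fe-sufficient-labelled arrays was not above background, so these calls rest partly on unmeasured values. Without Fe-deficient 2 or Fe-deficient 3 the number called was 5, against 0.0318% of all transcripts each time. With an RMA-type background correction 5 were called (0.0402% of all transcripts), with a filter on dim transcripts 6 (0.108%) and with array weights 11 (0.201%). With the replicate number as a block 0 were called (0% of all transcripts).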

How the data were processed

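Total RNA of 6 root samples was labelled with Cy3 and hybridised to NimbleGen maize arrays. The deposited files hold a linear probe intensity, quantile-normalized across arrays by the authors (medians from 549.97 to 550.03 on the 6 arrays); RMA is named in the submitters' processing notes, while a background step before deposit is not stated in the sources used here. Array files and deposited value table were identical (largest difference 0).

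Intensities were taken to log2, and the probes of a transcript were combined by median polish. Groups were compared with limma 3.58.1 (lmFit, eBayes; R 4.3.3) over 59756 transcripts, with no covariate, and p-values were adjusted by Benjamini-Hochberg. For the 6 genes, the fold of a transcript not above background on any array of a group was given as a bound. The limma step was also run on simulated arrays with independent noise for each transcript and array. Such arrays hold no deviations shared by the transcripts of an array, so nothing is read from that run. Names came from a RefSeq gene table (assembly Zm-B73-REFERENCE-NAM-5.0), used for names only: 18172 of 39219 genes matched 1 entry. Genes named were all transcripts of the 6 genes, the 3 genes with the largest difference per list and any called gene, and the 8 transcripts most like NAR and NIR. The genes and lists were chosen with earlier results of these data known. By the methods, roots were collected in 3 separate cultivations with a pool for each treatment, so both groups may share a cultivation. The labels do not say whether a replicate number marks such a shared cultivation. Alternatives were an RMA-type background correction, median scaling, cyclic loess, array weights, a filter on dim transcripts, the mean of probes, a minimum fold of 2, the replicate number as a block, and each array left out. Tables and plots were made with matplotlib 3.10.9, numpy 2.4.6 and pandas 2.3.3 under Python 3.11.15.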

Additional observations from a re-analysis of the deposited data

How the results depend on the processing

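All 121 recomputed differences of single transcripts (11 transcripts under 5 other settings and with each of the 6 arrays left out) stayed positive. With arrays left out this sign was fixed in advance, because the groups did not overlap, so it is no check. The recomputed differences of the 10 transcripts other than sum1 T01, which has only a bound, lay between 1.02 and 5.05. Of the 11 transcripts, 6 were called, and the count was 5 with an RMA-type background correction, 11 with array weights, 0 with the replicate number as a block, and from 1 to 9 with single arrays left out. Over all transcripts 51 were called, against 28 with the RMA-type correction, 165 with array weights, 0 with the replicate block, and from 2 to 1096 with single arrays left out (2 without Fe-deficient 1, 22 without Fe-deficient 2, 21 without Fe-deficient 3, 1096 without Fe-sufficient 1, 3 without Fe-sufficient 2 and 6 without Fe-sufficient 3). With an unadjusted p not above 0.05 and a fold of 1.5 or more in limma there were 3523 transcripts with the block and 3190 without it. The replicate numbers were not taken as pairs, because the labels do not say that a number marks a cultivation shared by both groups. Same-numbered arrays deviated from their group means with r of -0.12, -0.008 and 0.07. If the numbers do mark shared cultivations, the model with the block, and its 0 calls, is the one to use. Of the 48 other genes 0 were called, but 1 (pgd3) with a filter on dim transcripts, 2 (pgd3 and gln1) with array weights, and from 0 to 2 with single arrays left out, the 2 being pgd3 and gln1 without Fe-sufficient 1. The cause of these changes was not tested, beyond the smaller number of transcripts under the filter. Median scaling, cyclic loess, the mean of probes and a minimum fold of 2 left all these counts within 1.5 times the reported ones.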
